A study of Arabidopsis thaliana with 9 samples.

Results

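The nuclear photosystem, antenna and Rubisco small-subunit genes are 51 of the 37051 nuclear genes counted in Arabidopsis thaliana libraries from the T-DNA insertion alleles zmp-2 and zmp-1 of ZMP (AT5G63700) and from WT. They were chosen by locus identifier from their annotated roles and not by expression, though earlier results of these data were known. They comprise 4 LHCA, 14 LHCB, 4 RBCS, 11 photosystem I, 10 photosystem II, 6 electron carrier and 2 ATP synthase genes. The zmp-2 plants carried line SALK_008955, the zmp-1 plants carried line SALK_066029, and all genotypes including WT were in the Col-0 ecotype. Polyadenylated RNA came from seedlings aged 12 days, grown with 16 h of light and 8 h of dark, with 3 biological replicates of each genotype. Each allele is a single insertion line, and no complemented line is among the libraries. The comparisons asked whether loss of ZMP, a protein that associates with the largest subunit of RNA polymerase IV, was accompanied by different transcript levels of these genes.

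These genes encode proteins that are made in the cytosol, imported into the chloroplast and assembled there with partners encoded by the chloroplast genome. LHCA and LHCB proteins bind chlorophyll and pass light energy to photosystem I and photosystem II, the PSA and PSB proteins are subunits of those photosystems, and plastocyanin, the Rieske protein, ferredoxin and ferredoxin-NADP reductase carry electrons between complexes and on to NADP. The ATP synthase subunits use the proton gradient that results, and the RBCS proteins are the small subunits of Rubisco, the enzyme that fixes CO2. The genes are known for high expression in green tissue and for control by light, the circadian clock, GOLDEN2-LIKE factors and signals from the plastid.

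Levels below are nuclear RPM, gene counts divided by the nuclear total of the library after trimmed mean of M-values (TMM) scaling, so that chloroplast and mitochondrial transcripts do not enter the scale. The libraries held 5815211 to 25182435 counts, of which 1978963 to 8439115 were nuclear and 55.1 to 66.3% were chloroplast. ZMP itself was at 4.17, 2.81 and 3.66 RPM in zmp-2, against 5.83, 8.29 and 7.86 in zmp-1 and 15.2, 18.5 and 20.7 in WT, and its log2 fold change was -2.34 ± 0.26 (SE) in zmp-2 (adjusted p = 0.00937, edgeR quasi-likelihood test with Benjamini-Hochberg adjustment) and -1.35 ± 0.26 (SE) in zmp-1 (adjusted p = 0.162), against WT. Both alleles were below WT in 3 of 3 libraries. The labels name seedlings, as does the study where it shows ZMP transcripts, while its methods name inflorescences for the mRNA libraries. Of 7 floral marker genes, AG had no count in the 9 libraries and the summed level of the others was 4.55 to 4.97 RPM in zmp-2, 3.66 to 9.43 RPM in zmp-1 and 4.48 to 8.40 RPM in WT. The 3 senescence markers summed to 3.41 to 4.1 RPM in zmp-2, 0.975 to 5.5 RPM in zmp-1 and 4.2 to 68.3 RPM in WT, the highest value being that of WT replicate 3. The 7 root markers summed to 4.1 to 4.75 RPM in zmp-2, 4.69 to 14.6 RPM in zmp-1 and 4.2 to 27.3 RPM in WT, with WT replicate 2 the highest. WT replicate 3 also had the lowest mean correlation with the other libraries, 0.927 (log2 levels, all nuclear genes tested) against 0.94 or more for each of the others.

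Several of the genes are close copies, and their coding sequences show how far reads can be assigned to one copy. The LHCB1.1, LHCB1.2 and LHCB1.3 genes lie within 1 cluster on chromosome 1 and encode subunits of the major trimeric antenna of photosystem II. Their first 150 coding bases, read 5′ to 3′ from the RefSeq TAIR10.1 assembly, are shown in lower case, with the 10 positions that differ among the 3 copies in capitals. LHCB1.1 was read from chr1:10475743-10475892 on the minus strand, LHCB1.2 from chr1:10473097-10473246 on the minus strand and LHCB1.3 from chr1:10478071-10478220 on the plus strand.
LHCB1.1: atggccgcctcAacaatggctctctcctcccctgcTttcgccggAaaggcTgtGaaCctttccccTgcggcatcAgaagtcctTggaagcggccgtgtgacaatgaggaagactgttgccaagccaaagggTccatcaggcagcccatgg
LHCB1.2: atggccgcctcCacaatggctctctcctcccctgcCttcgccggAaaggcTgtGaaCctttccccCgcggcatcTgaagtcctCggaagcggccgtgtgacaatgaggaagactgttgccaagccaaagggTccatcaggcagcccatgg
LHCB1.3: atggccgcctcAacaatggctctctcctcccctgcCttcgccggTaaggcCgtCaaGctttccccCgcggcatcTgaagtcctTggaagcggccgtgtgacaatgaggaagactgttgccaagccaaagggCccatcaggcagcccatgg
Over the whole coding sequence of 804 bases, LHCB1.1 differed from LHCB1.2 at 35 positions, LHCB1.1 from LHCB1.3 at 31 and LHCB1.2 from LHCB1.3 at 29. No window of 150 bases, the length of 1 read, was shared by these 3 genes.

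The RBCS1B, RBCS2B and RBCS3B genes stand side by side on the minus strand of chromosome 5, at chr5:15385006-15385155, chr5:15381829-15381978 and chr5:15378157-15378306 for the first 150 coding bases. Capitals mark the 15 positions at which these copies differ.
RBCS1B: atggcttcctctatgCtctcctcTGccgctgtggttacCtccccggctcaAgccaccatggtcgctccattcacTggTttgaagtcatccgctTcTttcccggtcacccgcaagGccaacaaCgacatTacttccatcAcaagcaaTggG
RBCS2B: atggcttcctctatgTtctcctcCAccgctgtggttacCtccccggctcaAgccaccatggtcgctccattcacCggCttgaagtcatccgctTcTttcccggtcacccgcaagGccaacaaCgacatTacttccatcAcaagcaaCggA
RBCS3B: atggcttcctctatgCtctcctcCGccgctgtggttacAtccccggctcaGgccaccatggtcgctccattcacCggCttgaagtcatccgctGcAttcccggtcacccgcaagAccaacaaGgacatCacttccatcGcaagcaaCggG
RBCS1B and RBCS3B shared some windows of 150 bases with other genes, 4.81% of those of RBCS1B and 7.92% of those of RBCS3B, and LHCB2.1 and LHCB2.2 shared 0.24% and 0.30%. All other members shared no window with genes that do not overlap them, so that copies could be told apart over nearly all of each gene. Genes that overlap a member on the chromosome were left out of this search. Reads from such overlaps are a separate limit, given with the levels.

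The 250 bases before the annotated start of 4 genes are shown because LHCB1.3 had the highest level of the 51 genes, and because RBCS2B, PSAD1 and PSAD2 differed among replicates in a shared set of libraries, as described further on. Capitals mark motifs searched on both strands. The G-box was searched as CACGTG. The I-box was searched as GATAAG. The CCAAT box was searched by the letters of its name, and the TATA box as TATAAA. The sequences run 5′ to 3′ toward the gene, LHCB1.3 from chr1:10477635-10477884 on the plus strand and RBCS2B from chr5:15382072-15382321, PSAD1 from chr4:1230165-1230414 and PSAD2 from chr1:754263-754512 on the minus strand.
LHCB1.3: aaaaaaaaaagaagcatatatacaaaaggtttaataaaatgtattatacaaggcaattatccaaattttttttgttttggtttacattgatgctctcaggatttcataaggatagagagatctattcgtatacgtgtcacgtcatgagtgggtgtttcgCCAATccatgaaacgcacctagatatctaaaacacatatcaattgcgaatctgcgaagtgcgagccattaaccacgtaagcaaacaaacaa
RBCS2B: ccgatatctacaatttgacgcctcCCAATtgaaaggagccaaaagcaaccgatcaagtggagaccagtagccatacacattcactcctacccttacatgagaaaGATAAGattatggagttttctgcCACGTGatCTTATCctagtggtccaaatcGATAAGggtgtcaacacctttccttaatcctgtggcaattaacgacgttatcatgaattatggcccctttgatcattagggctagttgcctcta
PSAD1: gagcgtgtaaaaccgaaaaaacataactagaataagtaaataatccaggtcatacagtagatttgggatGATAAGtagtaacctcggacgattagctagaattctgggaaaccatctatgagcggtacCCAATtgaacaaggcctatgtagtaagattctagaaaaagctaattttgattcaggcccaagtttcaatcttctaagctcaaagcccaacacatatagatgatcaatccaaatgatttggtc
PSAD2: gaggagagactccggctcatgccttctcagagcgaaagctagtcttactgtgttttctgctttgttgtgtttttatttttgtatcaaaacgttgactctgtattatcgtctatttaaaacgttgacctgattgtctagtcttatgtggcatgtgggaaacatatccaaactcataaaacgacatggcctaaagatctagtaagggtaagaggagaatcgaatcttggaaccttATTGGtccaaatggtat
The RBCS2B window held 1 G-box, starting 123 bases before the gene, and 3 I-boxes, starting 146, 115 and 94 bases before it. Of the 4 RBCS genes, only RBCS2B had a G-box or an I-box in this window, and RBCS1A, RBCS1B and RBCS3B had neither. A G-box was present before 9 of the 51 genes (17.6%, against 7.5% of the 17730 nuclear genes tested) and an I-box before 13 (25.5%, against 12.6%). The CCAAT letters were found before 34 of the 51 genes (66.7%, against 48.1%) and before 13 of the 14 LHCB and 4 of the 4 LHCA genes. They stood before 7 of the 11 photosystem I, 4 of the 6 electron carrier and 2 of the 2 ATP synthase genes. In the remaining roles they stood before 2 of the 4 RBCS and only 2 of the 10 photosystem II genes. The TATAAA letters were found before 23 (45.1%, against 45.7%). These shares are descriptions of letters in the windows and were not tested.

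The genes spanned a wide range of levels. Per kb of exon, LHCB1.3 was the highest at 11325 RPM per kb averaged over the 9 libraries, followed by PSBR, a small subunit of photosystem II, at 7338 RPM per kb, LHCA4 at 3829.9 RPM per kb and LHCA1 at 3697 RPM per kb. Of the 10 nuclear genes with the highest level per kb, 5 were members, as were 22 of the top 50 and 41 of the top 200. The lowest member with counts was LHCB4.3, an isoform of the minor antenna CP29, at 3.17 RPM per kb. LHCB2.3 was at 43.1 RPM per kb of its whole exon length, and at 72.5 over the exon bases outside opposite-strand genes. RBCS1B, with no such overlap, was also low, at 60.6 RPM per kb against 2254 for RBCS1A, 1365 for RBCS3B and 988 for RBCS2B. Of the plastocyanin genes, PETE2 stood at 2101 RPM per kb and PETE1 at 68.9.

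**Figure D1:**
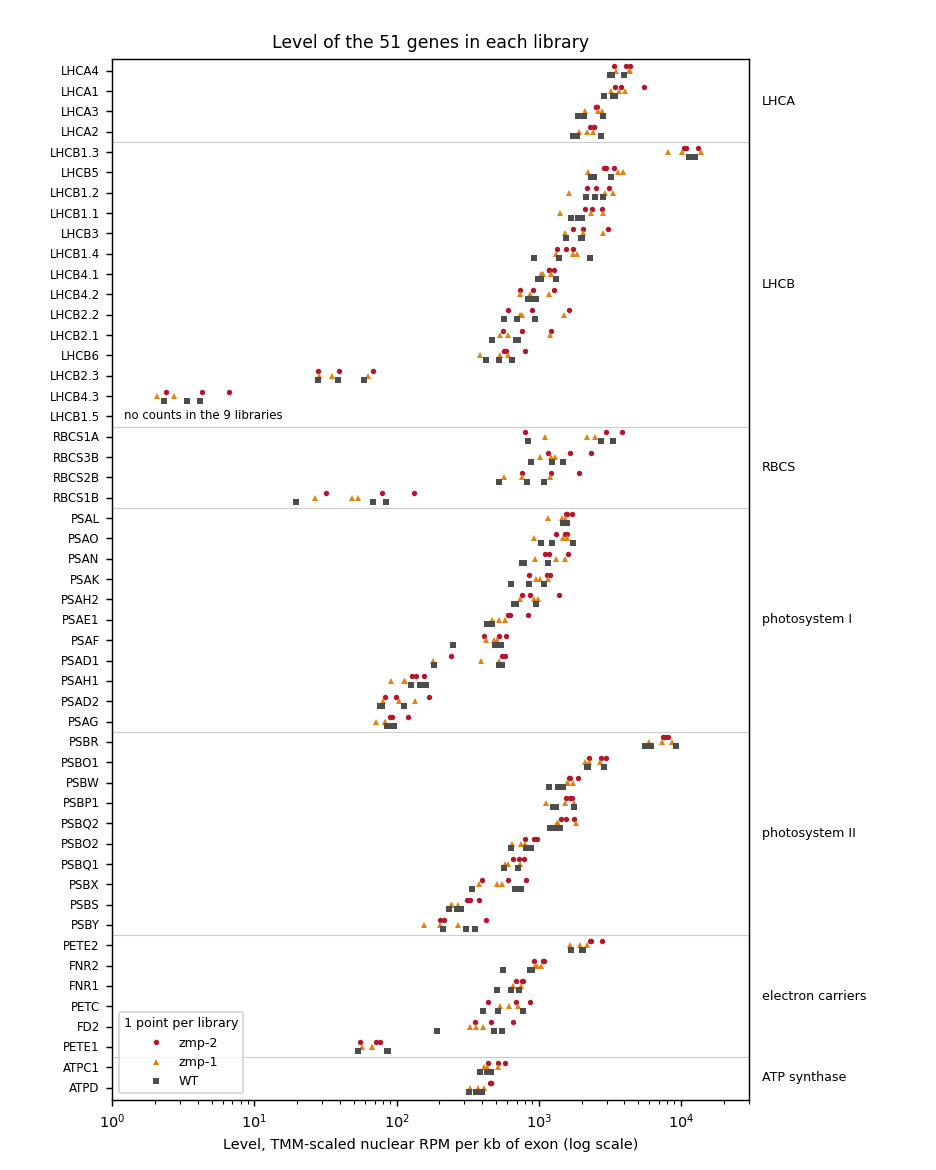
Level of each of the 51 genes in TMM-scaled nuclear RPM per kb of exon (log axis), with 1 point for each library, red circles for zmp-2, orange triangles for zmp-1 and grey squares for WT, grouped by role and ordered by mean level. The points of the 3 genotypes overlap for most genes, LHCB1.3 and PSBR lie at the top, and LHCB1.5 had no counts.

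LHCB1.5 (AT2G34420, chr2:14522524-14523568 on the minus strand) had 0 counts in each of the 9 libraries, which allows a level of up to 0.355 to 1.52 RPM per library when 0 counts are taken as at most 3 and covers counting error only. Its single exon lies wholly inside AT2G08665 on the opposite strand, which had 0 counts as well, and AT2G34410, which also overlaps it, had 984 counts over the 9 libraries. Among protein-coding nuclear genes whose exon bases lie wholly in opposite-strand genes, 344 of 345 had 0 counts (99.7%), against 3535 of 20770 genes with no such overlap (17.0%). The 0 for LHCB1.5 therefore cannot be read as absence of its transcript. The counter used, STAR, leaves out read pairs that overlap more than 1 gene when strand is ignored. Among the other members, the largest shares of exon bases in a gene on the opposite strand were those of PSAG (61.4%), PSAH1 (53.3%), LHCB2.3 (40.6%), PSAE1 (34.1%), PSAH2 (24.8%) and LHCB6 (20.4%). Smaller shares were those of LHCB3 (15.0%), FNR1 (12.7%), LHCB1.3 (8.8%), PSBR (6.5%), LHCA4 (4.1%), PSAN (3.8%), LHCB4.2 (3.2%) and PSBP1 (3.0%). Levels per kb of whole exon length are therefore understated for these genes. Over the exon bases outside opposite-strand genes, a measure chosen after seeing the data, PSAG was at 234 RPM per kb, against 90.5 over its whole exon length, and PSAH1 at 278, against 129.8. By the same measure LHCB1.3 was at 12418, against 11325, and remained the highest member. The remaining 50 members passed the filter on low counts and were tested.

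In percent of nuclear counts, the 51 genes together took 9.26, 10.2 and 9.41 in zmp-2, against 7.93, 9.17 and 9.96 in zmp-1 and 9.47, 7.87 and 7.70 in WT. The mean was 9.62 ± 0.50% in zmp-2, 9.02 ± 1.025% in zmp-1 and 8.34 ± 0.98% in WT (SD, n = 3 each). The ranges overlapped, since WT replicate 1 was above 2 of the zmp-2 libraries and above 2 of the zmp-1 libraries. LHCB genes made up the largest portion, with 3.56 ± 0.56% of nuclear counts in zmp-2, 3.49 ± 0.87% in zmp-1 and 3.27 ± 0.26% in WT, and photosystem II genes followed with 1.91 ± 0.028% in zmp-2, 1.78 ± 0.18% in zmp-1 and 1.67 ± 0.27% in WT (SD, n = 3 each). The RBCS genes took 0.995, 0.339 and 0.745 in zmp-2, against 0.642, 0.517 and 0.366 in zmp-1 and 0.659, 0.299 and 0.649 in WT, in percent of nuclear counts, and the range within each genotype was wider than the distance between genotype means. In these bulk samples, fewer green cells and less transcript per cell cannot be told apart. As a share of all counts, chloroplast genes included, the 51 genes took 3.44% in zmp-2, 3.12% in zmp-1 and 3.20% in WT.

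**Figure D2:**
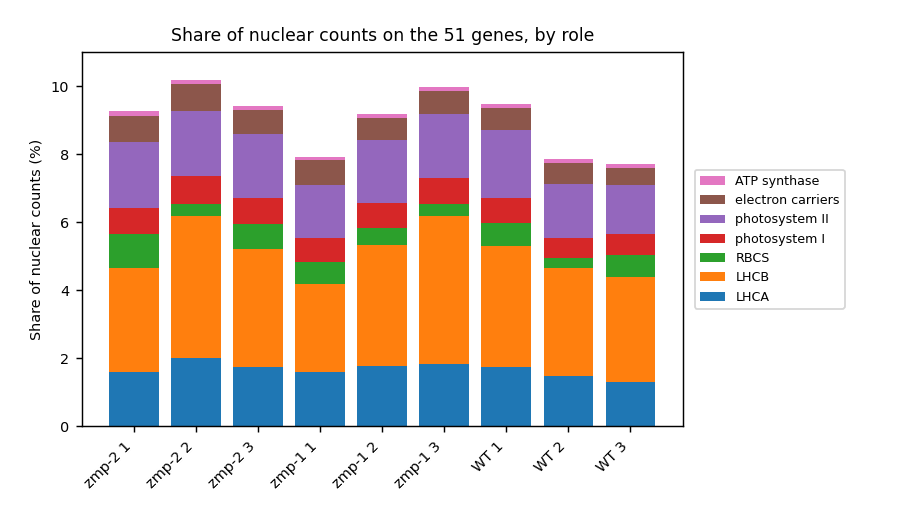
Share of nuclear counts (%) taken by the 51 genes in each library, stacked by role, with the zmp-2 libraries left, the zmp-1 libraries in the middle and the WT libraries right. The stacks reach 7.70 to 10.2%, and those of the genotypes overlap.

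No member passed an adjusted p of 0.05 in zmp-2 against WT by edgeR's quasi-likelihood test, where 0.18% of all nuclear genes tested did. In direction, 46 of the 50 members tested had a positive log2 fold change, against 49.2% of all genes tested, and the median over the members was 0.24, against -0.0077 over all genes. The number of positive values is not a test, because the members share libraries and control. An unadjusted p under 0.05 was reached by 4 members, all higher in zmp-2 (6.43% of all genes tested, 12.4% in either direction, 5.95% lower), namely PSAE1, PSBS, PSBW and ATPD. DESeq2 called 1 member, PSAE1, with an adjusted p of 0.0449 (1.23% of all genes). In 9 members each zmp-2 library was above each WT library (9.31% of all genes), namely LHCA1, LHCB1.1, PSAE1, PSBQ2, PSBS, PSBW, PETE2, FNR2 and ATPD, and in none was each zmp-2 library below WT (7.08%). Leaving out WT replicate 2 lowered the median to 0.14 and the number of positive values to 39, and leaving out zmp-2 replicate 2 lowered them to 0.16 and 42. Without WT replicate 3 they were 0.21 and 45.

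**Figure D3:**
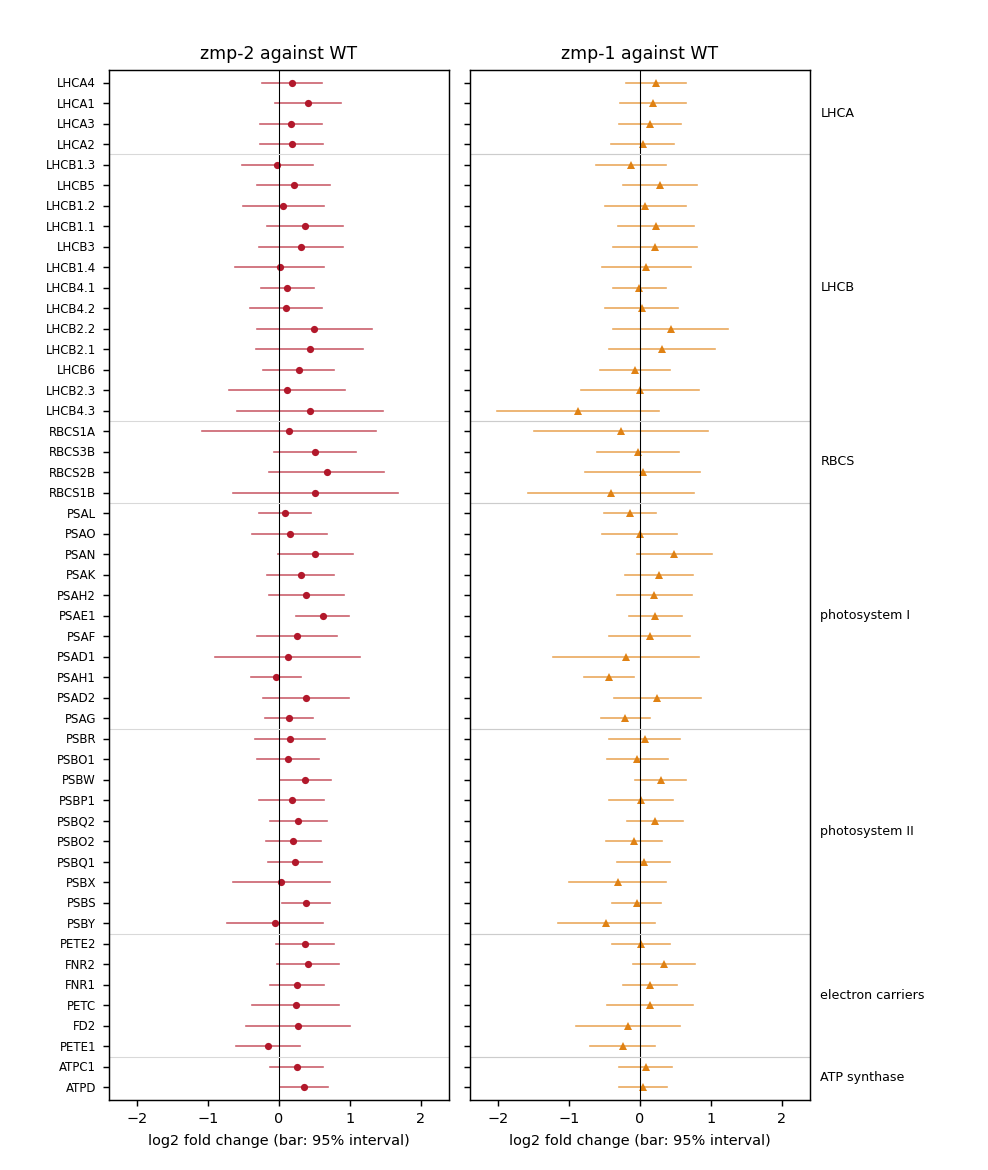
Log2 fold change of the 50 genes tested, zmp-2 against WT (left) and zmp-1 against WT (right), with the 95% interval of the edgeR fit as a bar, grouped by role. Most points of zmp-2 lie right of 0 with intervals that include 0, and those of zmp-1 lie on both sides.

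The lowest p in zmp-2 was that of PSAE1, a stromal photosystem I subunit that helps ferredoxin dock. PSAE1 (AT4G28750) was at 488, 669 and 497 RPM in zmp-2, against 458, 418 and 376 in zmp-1 and 373, 365 and 343 in WT. The zmp-2 and WT libraries did not overlap, zmp-1 lay between them, and the log2 fold change of zmp-2 against WT was 0.61 ± 0.17 (SE) with a 95% interval of 0.24 to 0.99 (unadjusted p = 0.00384, adjusted p = 0.207 by edgeR, higher in 3 of 3 libraries). Over 19 alternatives the adjusted p was 0.0449 to 0.514, at most 0.05 in 1 of them, DESeq2. The part of the opposite-strand gene over 34.1% of its exon bases was not tested. Its paralog PSAE2, which is no member, was at 567, 664 and 613 RPM in zmp-2, against 537, 496 and 529 in zmp-1 and 607, 485 and 463 in WT, and zmp-2 differed from WT by 0.25 on the log2 scale (adjusted p = 0.583, edgeR). Among the other photosystem I genes, the stromal subunit genes PSAD1 and PSAD2 had log2 fold changes of 0.12 and 0.38, PSAF, whose product docks plastocyanin, had 0.25, and PSAN, also on the lumenal side, had 0.51 ± 0.24 (SE). PSAN (AT5G64040) was at 1193, 1622 and 1129 RPM in zmp-2, against 959, 1354 and 1547 in zmp-1 and 1184, 776 and 802 in WT, and the ranges of zmp-2 and WT overlapped because WT replicate 1 was above zmp-2 replicate 3. PSAL (AT4G12800), whose product borders the LHCII docking site, had the highest level per kb of this role and was at 1805, 1951 and 1773 RPM in zmp-2, against 1655, 1322 and 1756 in zmp-1 and 1756, 1686 and 1793 in WT, with zmp-1 replicate 2 the lowest. PSAG (AT1G55670), which binds the antenna belt, was at 72.0, 93.9 and 69.9 RPM in zmp-2, against 64.8, 56.1 and 64.5 in zmp-1 and 74.8, 72.2 and 67.2 in WT, and zmp-2 overlapped WT. It had the lowest level per kb of whole exon length of this role, but over exon bases outside opposite-strand genes PSAD2 was lower, at 104 RPM per kb. The fold changes of PSAK, PSAO, PSAH1 and PSAH2 were 0.31, 0.15, -0.040 and 0.39 on the log2 scale, none past the threshold.

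Photosystem II genes in zmp-2 had a median log2 fold change of 0.19 and 9 of 10 were positive. PSBS (AT1G44575), which triggers the dissipation of excess light energy, was at 683, 591 and 569 RPM in zmp-2, against 441, 439 and 485 in zmp-1 and 511, 422 and 477 in WT. Each zmp-2 library was above each WT and each zmp-1 library, and the log2 fold change against WT was 0.39 ± 0.16 (SE) (unadjusted p = 0.0289, adjusted p = 0.341, edgeR). PSBW (AT2G30570), a small membrane subunit that stabilizes supercomplexes, was at 1577, 1819 and 1565 RPM in zmp-2, against 1536, 1508 and 1659.7 in zmp-1 and 1409.8, 1303 and 1124 in WT with 0.37 ± 0.16 (SE) (adjusted p = 0.393, edgeR). PSBS and PSBW are outside the rule for genes with values and were chosen after their values were seen. PSBR (AT1G79040), the highest of this role, was at 6035, 6306 and 5900.3 RPM in zmp-2, against 4674, 6756 and 5728 in zmp-1 and 7203, 4362 and 4809 in WT, with WT replicate 1 the highest of the 9 libraries and WT replicate 2 the lowest. PSBY (AT1G67740), the lowest, was at 263, 522 and 246 RPM in zmp-2, against 247, 191 and 331 in zmp-1 and 258, 434 and 375 in WT and its fold change of -0.051 ± 0.31 (SE) was among the lowest of the members in zmp-2. The genes for the extrinsic proteins of the oxygen-evolving complex had log2 fold changes of 0.13 (PSBO1), 0.20 (PSBO2), 0.18 (PSBP1), 0.23 (PSBQ1) and 0.27 (PSBQ2), and PSBX, a low-mass subunit, had 0.033.

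All 4 LHCA genes, which encode the antenna of photosystem I, had positive log2 fold changes in zmp-2, from 0.17 to 0.40, with adjusted p of 0.468 or more by edgeR. LHCA4 (AT3G47470), the highest of them, was at 4386, 5695 and 5285 RPM in zmp-2, against 4539, 5672 and 5592 in zmp-1 and 5164, 4216 and 4088 in WT. LHCA2 (AT3G61470), the lowest, was at 3415, 3436 and 3252 RPM in zmp-2, against 2717, 3092 and 3360.2 in zmp-1 and 3835, 2465 and 2606 in WT, and in both genes the WT range held libraries above a zmp-2 library. Of the 13 LHCB genes tested, 12 were positive, with a median of 0.21. LHCB1.3 (AT1G29930) was at 12818, 16270.3 and 13424 RPM in zmp-2, against 9975, 12506 and 17147 in zmp-1 and 15391, 13937 and 13897 in WT, with a log2 fold change of -0.024 ± 0.23 (SE) and a 95% interval of -0.52 to 0.48. LHCB1.1 (AT1G29920) was at 2761, 3648 and 3096 RPM in zmp-2, against 1842, 3059.9 and 3695 in zmp-1 and 2491, 2217 and 2641 in WT and LHCB1.2 (AT1G29910) at 2675, 3827 and 3068 RPM in zmp-2, against 1993, 3580.2 and 4097 in zmp-1 and 3487, 2637 and 3030.2 in WT. The sum of LHCB1.1 to LHCB1.3 had a log2 fold change of 0.044 ± 0.24 (SE) in zmp-2. LHCB1.4 (AT2G34430) was at 2036, 1748 and 2300.0 RPM in zmp-2, against 1732, 2428 and 2269.6 in zmp-1 and 2992, 1222 and 1833 in WT, and its WT libraries alone covered the whole range of the 9. LHCB5 (AT4G10340), the minor antenna CP26, was at 4008, 4675 and 4095 RPM in zmp-2, against 3059, 5004 and 5426 in zmp-1 and 4459, 3403 and 3214 in WT. The other antenna genes had log2 fold changes in zmp-2 of 0.31 (LHCB3), 0.12 (LHCB4.1), 0.10 (LHCB4.2), 0.28 (LHCB6) and 0.11 (LHCB2.3).

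LHCB2 proteins are among the antenna subunits that are phosphorylated in state transitions. LHCB2.1 (AT2G05100) was at 781, 1717 and 1067 RPM in zmp-2, against 745, 857 and 1677 in zmp-1 and 664, 1008 and 969.8 in WT and LHCB2.2 (AT2G05070) at 696, 1864 and 1025 RPM in zmp-2, against 868, 838 and 1718 in zmp-1 and 650.0, 806 and 1079.8 in WT. In both, zmp-2 replicate 2 and zmp-1 replicate 3 were above the other 7 libraries. The fold changes of zmp-2 against WT were 0.43 ± 0.34 (SE) and 0.50 ± 0.37 (SE) on the log2 scale, with 95% intervals of -0.32 to 1.19 and -0.31 to 1.31.

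Of the roles, the RBCS genes had the largest median log2 fold change in zmp-2, 0.51, and also the largest median SE, 0.45. RBCS2B (AT5G38420) had the highest log2 fold change of the 50 members, 0.67 ± 0.37 (SE) (adjusted p = 0.493, edgeR), and was at 1805, 716 and 1137 RPM in zmp-2, against 1119, 709 and 529 in zmp-1 and 1023, 494 and 778 in WT. RBCS3B (AT5G38410) was at 3266, 1625 and 2352 RPM in zmp-2, against 1834, 1437 and 1713 in zmp-1 and 2082, 1252 and 1759 in WT, with 0.51 ± 0.27 (SE). RBCS1A (AT1G67090) was at 4876, 1018 and 3772 RPM in zmp-2, against 3139.7, 2757 and 1396 in zmp-1 and 3489.8, 1072 and 4201 in WT and RBCS1B (AT5G38430) at 253, 60.2 and 151 RPM in zmp-2, against 101, 91.7 and 50.3 in zmp-1 and 159, 37.2 and 129.9 in WT, with fold changes of 0.14 ± 0.56 (SE) and 0.52 ± 0.53 (SE). In each of the 4 genes a zmp-2 library lay below a WT library. Libraries of the same replicate number count as pairs for these genotypes, although the main fit did not pair them. Between such pairs RBCS1B, RBCS2B and RBCS3B were higher in zmp-2 in 3 of 3 and RBCS1A in 1 of 3. These counts are descriptions, since the share of all genes higher in 3 of 3 pairs was not computed. With the replicate block the adjusted p of RBCS2B was 0.284 (edgeR). Without zmp-2 replicate 1 the value of RBCS1B was -0.047, and the sum of RBCS1B, RBCS2B and RBCS3B over all libraries had 0.56 ± 0.30 (SE, adjusted p = 0.479, edgeR).

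Of the 6 electron carrier genes, 5 were positive in zmp-2. PETE2 (AT1G20340), the main plastocyanin gene, was at 3127, 3738 and 3098 RPM in zmp-2, against 2948, 2219 and 2627 in zmp-1 and 2764, 2701 and 2252 in WT, each zmp-2 library being above each WT and zmp-1 library, with a log2 fold change of 0.37 ± 0.18 (SE) against WT (adjusted p = 0.448, edgeR). PETE1 (AT1G76100), the minor plastocyanin gene, was at 74.6, 80.3 and 58.0 RPM in zmp-2, against 59.8, 69.7 and 70.7 in zmp-1 and 91.6, 55.6 and 89.8 in WT and had the lowest fold change of the members in zmp-2, -0.15 ± 0.21 (SE). FNR1 and FNR2, encoding ferredoxin-NADP reductase, had 0.26 and 0.41, FD2, the main leaf ferredoxin, had 0.27 and PETC, the Rieske protein, had 0.24. ATPD (AT4G09650), the delta subunit of the ATP synthase, was at 532, 531 and 524 RPM in zmp-2, against 474, 378 and 429 in zmp-1 and 459, 369 and 416 in WT. The zmp-2 libraries were within 10 RPM of each other and above the other 6, and the fold change was 0.35 ± 0.16 (SE) against WT (unadjusted p = 0.0453, adjusted p = 0.394, edgeR). ATPC1 (AT4G04640), the gamma subunit, was at 781, 873 and 667 RPM in zmp-2, against 654, 629 and 782 in zmp-1 and 654, 707 and 587 in WT with 0.25 ± 0.17 (SE).

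In zmp-1 against WT the members lay on both sides of 0. The median log2 fold change was 0.043, against -0.011 over all genes tested, and 31 of 50 members were positive, against 48.5% of all genes. No member passed an adjusted p of 0.05 by edgeR (0.0451% of all genes) or DESeq2 (0.603% of all genes). An unadjusted p under 0.05 was reached by 1 member, which was lower in zmp-1 (5.31% of all genes), and by none that was higher (3.88%), where 9.19% of all genes reached it in either direction. That gene was PSAH1 (AT3G16140), encoding a photosystem I subunit at the LHCII docking site, which was at 177, 202 and 166 RPM in zmp-2, against 145, 119 and 149 in zmp-1 and 208, 163 and 189 in WT. Each zmp-1 library was below each WT library, and the fold change was -0.44 ± 0.16 (SE) on the log2 scale (adjusted p = 0.442, edgeR), while the other copy, PSAH2, had 0.20. PSAH1 was named after its values were seen, and 53.3% of its exon bases lie in an opposite-strand gene. Each zmp-1 library was also below WT for PSAG (5.89% of all genes), and above WT for PSAE1, PSBW and FNR2 (6.81% of all genes). The direction of the median depended on single libraries, since it was -0.053 without WT replicate 2, -0.015 without zmp-1 replicate 3, 0.17 without WT replicate 1, 0.15 without zmp-1 replicate 1 and 0.031 without WT replicate 3.

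The highest fold changes in zmp-1 were those of PSAN, 0.48 ± 0.24 (SE), and LHCB2.2, 0.43 ± 0.37 (SE), and the lowest those of LHCB4.3, -0.87 ± 0.52 (SE), and PSBY, -0.47 ± 0.31 (SE), all on the log2 scale and with adjusted p of 0.565 or more (edgeR). LHCB4.3 (AT2G40100) was at 9.66, 3.45 and 6.22 RPM in zmp-2, against 2.97, 3.90 and 0.786 in zmp-1 and 6.04, 4.86 and 3.36 in WT. It rested on 199 counts over the 9 libraries, and its 95% interval in zmp-1 was -2.02 to 0.27. By role, the median was 0.16 for LHCA, 0.079 for LHCB, -0.15 for RBCS, 0.14 for photosystem I, -0.0088 for photosystem II, 0.077 for the electron carriers and 0.064 for the ATP synthase genes. The same medians in zmp-2 were 0.19, 0.21, 0.51, 0.25, 0.19, 0.26 and 0.30. Both comparisons used the same WT libraries.

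The alleles were compared directly, because an effect in one allele alone does not show that the alleles differ. No member passed an adjusted p of 0.05 in zmp-2 against zmp-1 by edgeR (0.0226% of all genes) or DESeq2 (0.0846% of all genes). An unadjusted p under 0.05 (4.4% of all genes) was reached by none with a lower level in zmp-2 (2.14%) and by 5 with a higher level (2.26%), LHCB4.3, PSAE1, PSAG, PSAH1 and PSBS. The median log2 fold change was 0.15, against 0.018 over all genes, and 46 of 50 members were positive, against 53.2% of all genes. In 7 members each zmp-2 library was above each zmp-1 library (6.31% of all genes), PSAE1, PSAG, PSAH1, PSAL, PSBS, PETE2 and ATPD, and in none was each zmp-2 library below (5.48%). The highest values were those of LHCB4.3, 1.31 ± 0.51 (SE), and RBCS1B, 0.92 ± 0.54 (SE), and the lowest those of LHCB1.4, -0.079 ± 0.29 (SE), and LHCB5, -0.078 ± 0.24 (SE). Leaving out zmp-1 replicate 1 gave a median of 0.094 with 33 positive values, leaving out zmp-2 replicate 2 gave 0.097 with 32, and leaving out zmp-1 replicate 3 gave 0.27 with 46.

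For most members, replicates of a genotype differed more than the genotypes did. In the median member, 21.2% of the variance of the log2 level lay between genotypes, against 25.7% in all nuclear genes tested, and the SD within genotypes was 0.294, against 0.289 (log2). Such a share is no estimate of a genotype effect, because means of few libraries also differ through the spread between replicates. The largest shares between genotypes were 78.8% for PSBS, 75.6% for PSAE1 and 71.0% for PSBW, and the smallest 0.578% for LHCB2.3 and 0.604% for LHCB1.2. RBCS1A varied by 4.79 times between its highest and lowest library and RBCS1B by 6.78 times, while LHCB4.1 varied by 1.33 times, PSBQ1 by 1.38 times and LHCA4 by 1.39 times.

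**Figure D4:**
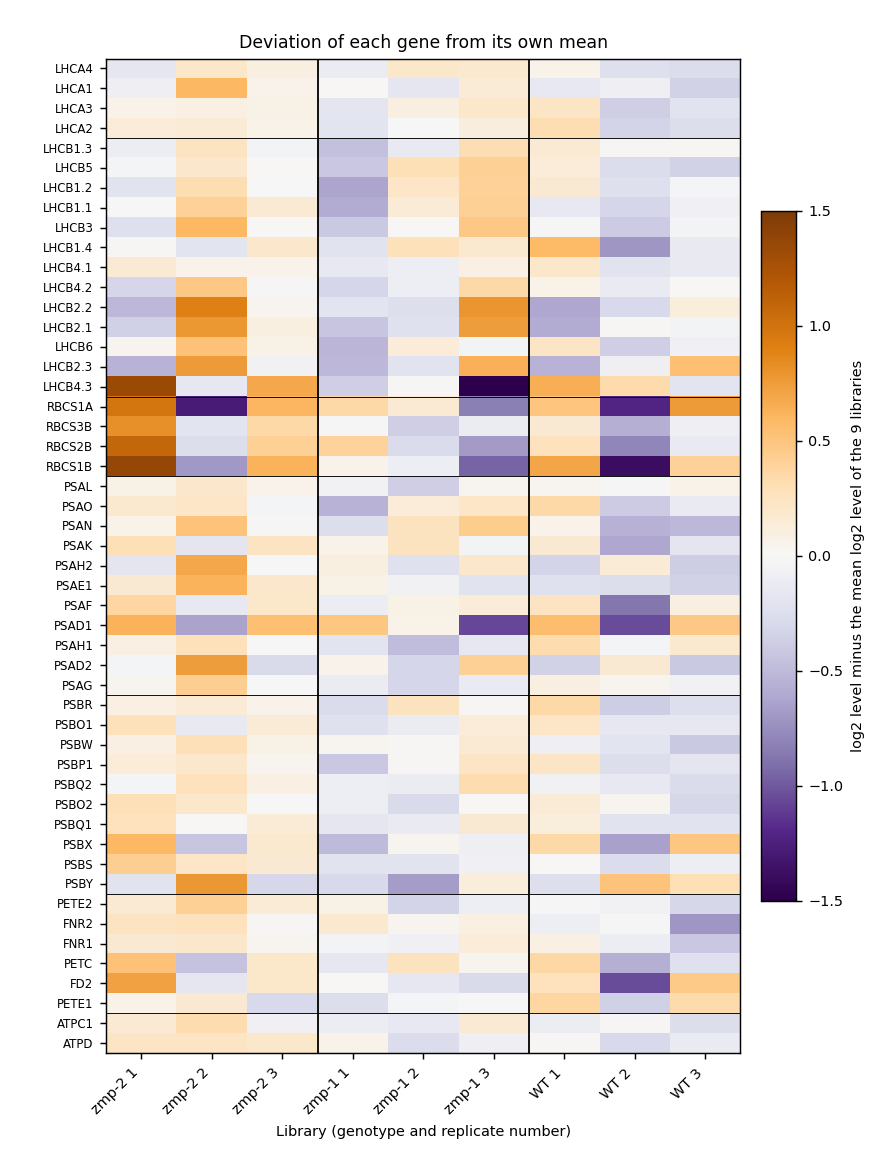
Log2 level of each tested gene minus its mean over the 9 libraries (colour scale, orange above and purple below the mean), with genes down the page by role and libraries across, zmp-2 left and WT right. RBCS1A, RBCS1B, RBCS2B and PSAD1 are purple in zmp-2 replicate 2, zmp-1 replicate 3 and WT replicate 2, where PSAD2 and LHCB2.1 are the highest of their genotype.

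One pattern cut across the genotypes. RBCS1A was lowest within its genotype in zmp-2 replicate 2, zmp-1 replicate 3 and WT replicate 2, and the same held for 6 of the 50 members, RBCS1A, RBCS1B, RBCS2B, PSAD1, PSAK and FD2 (6.70% of all genes). In the same libraries another 6 members were the highest of their genotype, LHCA1, LHCB2.1, PSAD2, PSAH2, PSBY and ATPC1 (6.32% of all genes). The libraries were picked by RBCS1A, so these counts are descriptions. The paralogs PSAD1 and PSAD2, both encoding the stromal subunit that binds ferredoxin, differed in opposite directions in these libraries. PSAD1 (AT4G02770) was at 659.7, 273 and 624 RPM in zmp-2, against 598, 445 and 203 in zmp-1 and 629, 207 and 595 in WT, and PSAD2 (AT1G03130) at 94.7, 161 and 78.8 RPM in zmp-2, against 99.9, 77.1 and 129 in zmp-1 and 75.9, 108 and 73.0 in WT. The ratio of PSAD1 to PSAD2 was 6.97, 1.69 and 7.92 in zmp-2, against 5.99, 5.77 and 1.57 in zmp-1 and 8.29, 1.91 and 8.15 in WT, so that 6 libraries lay at 5.77 or more and 3 at 1.91 or less. The ratio of RBCS1A to RBCS3B was 1.49, 0.627 and 1.60 in zmp-2, against 1.71, 1.92 and 0.815 in zmp-1 and 1.68, 0.857 and 2.39 in WT, below 1 in the same 3 libraries. By contrast the ratio of LHCB1.3 to LHCB1.2 ran from 3.49 to 5.29 and that of PSBO1 to PSBO2 from 2.77 to 3.96 over the 9 libraries. PSAD1 and PSAD2 are outside the rule for genes with values and were named after their values were seen.

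**Figure D5:**
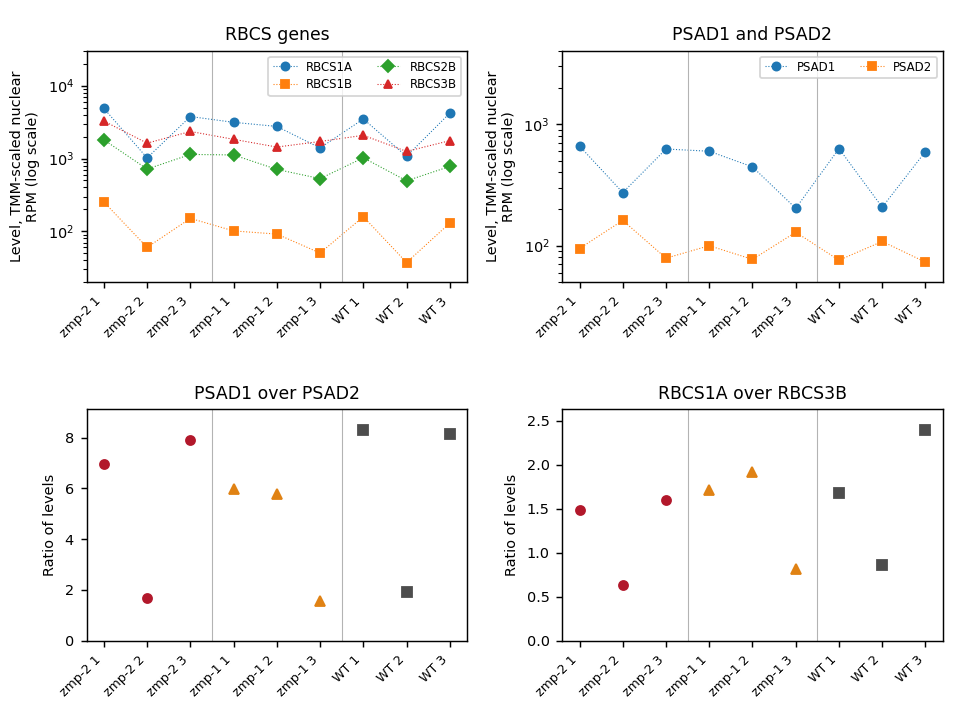
Top, level (TMM-scaled nuclear RPM, log axis) of the 4 RBCS genes and of PSAD1 and PSAD2 in each library, with zmp-2 left and WT right; bottom, ratio of PSAD1 to PSAD2 and of RBCS1A to RBCS3B. In zmp-2 replicate 2, zmp-1 replicate 3 and WT replicate 2 the PSAD1 to PSAD2 ratio was 1.69, 1.57 and 1.91, against 5.77 to 8.29 in the other libraries.

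The GOLDEN2-LIKE regulators of antenna genes were high in some of the same libraries. GLK1 was at 43.6, 92.4 and 57.8 RPM in zmp-2, against 47.8, 43.9 and 85.7 in zmp-1 and 50.9, 32.7 and 46.5 in WT and GLK2 at 68.6, 183 and 101 RPM in zmp-2, against 72.9, 57.1 and 124 in zmp-1 and 45.7, 66.4 and 58.5 in WT, both highest in zmp-2 replicate 2 and zmp-1 replicate 3. In WT replicate 2, GLK1 was the lowest of the 9 and GLK2 the highest of the 3 WT libraries. The clock gene CCA1, which peaks around dawn, was at 5.11, 16.4 and 9.33 RPM in zmp-2, against 4.92, 5.36 and 12.6 in zmp-1 and 4.99, 14.8 and 36.1 in WT, and within zmp-2 and zmp-1 it too was highest in those libraries, while in WT it was highest in replicate 3. GLK1 and CCA1 are outside the rule for genes with values and were named after their values were seen. Not all clock genes shared this pattern. TOC1 was the lowest of its genotype in zmp-2 replicate 2 (272 RPM) and zmp-1 replicate 3 (342 RPM). The share of all genes highest in those libraries of both alleles was not computed, and the part of these regulators in the pattern was not tested.

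Of the related genes outside the members, none was called by edgeR in any comparison. Their counts stand beside those over all nuclear genes tested, of which 49.2% were positive in zmp-2 and 48.5% in zmp-1 against WT. Of all genes, 6.43% (higher) and 5.95% (lower) reached an unadjusted p under 0.05 in zmp-2, and 3.88% (higher) and 5.31% (lower) did so in zmp-1. Among 27 chlorophyll synthesis genes tested, 22 were positive in zmp-2 (49.2% of all genes), with a median log2 fold change of 0.29. An unadjusted p under 0.05 was reached by 6 of them with higher levels (CHLH, CHLI1, CHLI2, PORC, DVR and PPO1, against 6.43% of all genes) and by 1 with a lower level (HEMA2, against 5.95%). The values ran from -0.38 for HEMA2, a glutamyl-tRNA reductase, to 0.72 for PORA, a protochlorophyllide reductase (adjusted p = 0.566, edgeR). In zmp-1, 21 of 27 had a positive value and the median was 0.090, from -0.18 for LIL3:2 to 0.43 for DVR, the divinyl reductase. In zmp-2 against zmp-1 the values ran from -0.27 for HEMA2 to 0.38 for HEMC.

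Of 20 Calvin-Benson cycle and Rubisco activase genes, 16 were positive in zmp-2 with a median of 0.28, from -0.87 for the transketolase gene TKL2 to 0.53 for PRK, phosphoribulokinase (adjusted p = 0.275 and 0.301, edgeR). In zmp-1, 8 of 20 were positive with a median of -0.066, from -0.90 for TKL2 to 0.24 for PRK, and between the alleles the values ran from -0.21 for CP12-3 to 0.52 for RPI3. An unadjusted p under 0.05 was reached by 2 higher and 2 lower genes in zmp-2 (6.43% and 5.95% of all genes) and by 2 lower genes in zmp-1 (5.31%).

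Of 16 regulators of photosynthesis genes tested, 15 were positive in zmp-2 (49.2% of all genes) and 13 in zmp-1 (48.5%), with medians of 0.39 and 0.25. An unadjusted p under 0.05 was reached by 5 of them in zmp-2 (GLK2, GNC, GUN1, SIG2 and COP1, all higher, against 6.43% of all genes) and by 0 in zmp-1 (3.88%). The genes given for passing the unadjusted p were picked after their values were seen. GLK2 had the highest value in both, 1.04 ± 0.35 (SE) in zmp-2 (adjusted p = 0.265, edgeR, higher in 3 of 3 libraries) and 0.57 ± 0.35 (SE) in zmp-1 (adjusted p = 0.653). The lowest values were -0.11 for PIF5 in zmp-2 and -0.79 for HYH in zmp-1, and between the alleles the values ran from -0.37 for PIF4 to 1.22 for HYH. The 12 clock genes tested had medians of 0.16 in zmp-2 and 0.16 in zmp-1, from -0.99 for LHY to 1.06 for PRR5 in zmp-2, from -1.39 for LHY to 0.53 for PRR5 in zmp-1 and from -0.15 for PRR9 to 0.53 for PRR5 between the alleles. PRR5, a clock repressor, was at 114, 154 and 166 RPM in zmp-2, against 80.2, 103 and 119 in zmp-1 and 61.4, 55.4 and 92.1 in WT. Its adjusted p in zmp-2 was 0.129 by edgeR, and DESeq2 called PRR5 and ELF4 there, where it called 1.23% of all genes. Of the 12 clock genes, 7 were positive in zmp-2 (49.2% of all genes) and 7 in zmp-1 (48.5%). An unadjusted p under 0.05 (edgeR) was reached by 3 in zmp-2 (6.43% of all genes) and 2 in zmp-1 (3.88%), all higher.

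Of 9 further nuclear genes of the same families tested, 8 were positive in zmp-2 and 4 in zmp-1, the medians being 0.13 and -0.077. The highest was LHCA6, with 0.63 (zmp-2) and 0.28 (zmp-1), and the lowest was FD3, with -0.19 (zmp-2) and -0.82 (zmp-1). Between the alleles the values ran from 0.030 for PSBP2 to 0.70 for FD1, a ferredoxin gene. The 5 genes for import and insertion of antenna proteins had medians of 0.20 in zmp-2 and 0.092 in zmp-1, with CPFTSY highest in both (0.30 and 0.25), CPSRP43 lowest in zmp-2 (0.044) and LTD lowest in zmp-1 (-0.45). Between the alleles these values ran from 0.039 for CPSRP54 to 0.66 for LTD. Of 4 antenna-like stress protein genes, 2 were tested, with OHP1 at 0.18 in zmp-2, -0.33 in zmp-1 and 0.50 between the alleles, and OHP2 at -0.027, -0.13 and 0.10.

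The plastid-encoded partners of these proteins were compared in a fit that included the chloroplast genes. All 12 partners tested had positive log2 fold changes against WT in both alleles, with medians of 0.22 in zmp-2 and 0.27 in zmp-1, none called by edgeR (lowest adjusted p = 0.439 in zmp-2 and 0.521 in zmp-1). In that fit 48.1% of all genes in zmp-2 and 48.9% in zmp-1 were positive, but so were 92 of the 99 chloroplast genes tested in each allele, with medians of 0.24 and 0.37. The chloroplast share of all counts was 62.8 ± 2.99% in zmp-2, 64.1 ± 1.52% in zmp-1 and 59.7 ± 4.0% in WT (SD, n = 3 each), lowest in WT replicate 3 at 55.1%. The zmp-2 range overlapped that of WT. Each zmp-1 library (62.5% or more) was above each WT library (62.1% or less). The part of this share in the fold changes was not tested. Against zmp-1, 2 of 12 partners were positive in zmp-2, with a median of -0.047. In that comparison 26 of the 99 chloroplast genes tested were positive, with a median of -0.12, against 50.7% of all genes.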

How the data were processed

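The authors made 9 libraries of polyadenylated RNA with a kit that does not mark strand, removed adapters using Trim Galore, ran STAR 2.5.3a to map and count, and deposited whole-number counts per gene for each library, over 37336 genes (37051 nuclear, 133 chloroplast and 152 mitochondrial). The deposited counts were used without change, and their totals are given with the results. The build named in the sources is TAIR10. Coordinates and sequences came from the RefSeq TAIR10.1 assembly, in which all chromosome lengths are those of TAIR10.

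Nuclear counts were scaled by TMM, filtered with filterByExpr (17730 genes kept) and tested in edgeR 4.0.16 (R 4.3.3, limma 3.58.1) by the quasi-likelihood test over all 9 libraries, with the genotype as the only term and Benjamini-Hochberg adjustment over all genes tested. A gene was called at an adjusted p of at most 0.05. DESeq2 1.42.0 was an alternative, as were other scalings and filters, summed copies, a replicate block and leaving out each library. The labels give biological replicates without saying what separated them, so p-values measure the spread between these samples. The fit was tested on simulated data for zmp-2 against WT: with 200 of 17730 genes changed, 80% of the genes changed 4-fold and 22% of those changed 2-fold were recovered.

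Values in every library are given for the highest and lowest gene of each role per kb and for the genes with the largest and smallest log2 fold change in each comparison, with the near-identical copies. The members and lists were chosen with earlier results of these data known. Replicate numbers were taken from the labels. Same-numbered libraries of zmp-2 and WT deviated together from their group means (correlations of 0.285, 0.227 and 0.135), which counts as pairing by a rule of over 0.1 in every pair. Those of zmp-1 and WT did not (0.0529, 0.0224 and 0.0518), nor did those of zmp-2 and zmp-1 (0.143, -0.0972 and -0.0968). The main fit did not use the pairing, so its SEs, intervals and p-values for zmp-2 against WT are unpaired. The replicate block put libraries of all genotypes in blocks, zmp-1 included.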

Additional observations from a re-analysis of the deposited data

How the results depend on the processing

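No member was called by edgeR under any alternative. DESeq2 called 1 member in zmp-2 against WT (PSAE1, 0.60) and none in the other comparisons. Over all genes DESeq2 called 218 in zmp-2 and 107 in zmp-1 against WT and 15 between the alleles, where edgeR called 32, 8 and 4, without a filter on low counts edgeR called 136, 56 and 8, and in fits of only the 6 libraries compared it called 6, 5 and 6. Leaving out a library gave 6 to 122 calls in zmp-2 against WT, 0 to 53 in zmp-1 against WT and 1 to 25 between the alleles. The median of the members kept its sign under every alternative in zmp-2 against WT and between the alleles, leaving out a library giving 0.14 to 0.36 and 0.094 to 0.27, and in zmp-1 against WT it was -0.053 to 0.17. With a replicate block no member was called, the calls over all genes were 32 in zmp-2 and 14 in zmp-1 against WT and 4 between the alleles, and the medians of the members were 0.24, 0.047 and 0.13. As a share of all counts the members took 3.44% in zmp-2, 3.12% in zmp-1 and 3.20% in WT.

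Of 72 log2 fold changes of 24 members, 32 changed sign under some alternative, 26 of them only when a library was left out. None of these was called. Without a TMM factor, RBCS3B was 0.024 in zmp-1 against WT and PSAN -0.0086 in zmp-2 against zmp-1. With upper-quartile factors, RBCS3B was 0.0027 in zmp-1 and LHCB1.3 0.0021 in zmp-2, against WT. LHCB1.4 in zmp-2 against WT was -0.0016 with all genes in the table, -0.0065 by DESeq2 and -0.0014 with at least 10 counts in every library. With the replicate block, RBCS1A was 0.022 in zmp-1 against WT and LHCB1.2 0.010 in zmp-2 against zmp-1. Leaving out a library gave, in zmp-2 against WT, LHCB1.3 -0.15 to 0.028, RBCS1A -0.30 to 0.56, PSBY -0.49 to 0.14, LHCB1.4 -0.25 to 0.40, LHCB1.2 -0.10 to 0.16, RBCS1B -0.047 to 0.89 and PSAG -0.021 to 0.22. In zmp-1 against WT it gave RBCS3B -0.21 to 0.15, LHCA2 -0.075 to 0.28, PSBR -0.071 to 0.33, ATPD -0.039 to 0.13, RBCS2B -0.31 to 0.32, LHCB1.4 -0.17 to 0.50, LHCB1.2 -0.12 to 0.33, RBCS1A -0.66 to 0.10, PETE2 -0.086 to 0.12, LHCB1.3 -0.35 to 0.042, ATPC1 -0.0073 to 0.15 and LHCB2.1 -0.13 to 0.53. In zmp-2 against zmp-1 it gave LHCB1.3 -0.064 to 0.31, PSBR -0.036 to 0.22, LHCB2.2 -0.42 to 0.46, PSAN -0.17 to 0.16, LHCB1.1 -0.091 to 0.35, LHCB2.1 -0.26 to 0.54, LHCA4 -0.14 to 0.038, LHCB1.4 -0.21 to 0.019, LHCB5 -0.29 to 0.056, LHCB1.2 -0.27 to 0.17, RBCS1A -0.042 to 0.81, PSBY -0.030 to 0.62 and PETE1 -0.024 to 0.22. Fewer libraries enter these fits, and the cause of the other changes was not tested. With 3 libraries a genotype, 22% of simulated 2-fold changes were recovered in zmp-2 against WT. The changed genes were drawn at random from all genes tested, and changes below 2-fold were not simulated. How often changes of the size seen in most members would be called was therefore not measured. A member that was not called is not shown to be unchanged.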
